A study of Mus musculus with 8 samples.

Results

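The nucleic acid sensors described here are 10 genes: *Ddx58*, *Ifih1*, *Dhx58*, *Mavs*, *Tlr3*, *Tlr7*, *Zbp1*, *Eif2ak2*, *Trex1* and *Adar*. They were chosen by name from the 54532 genes of the deposited expression table, in which all 10 were found. The cells were MICFs, cardiac fibroblasts from infarcted hearts of adult mice, carrying lentiviruses for tetracycline-inducible expression of MGT (*Mef2c*, *Gata4* and *Tbx5* in one construct), of *Myocd* and *Sall4* and of eGFP. The study found macrophages and a small share of endothelial cells among MICFs as isolated. Whether these were removed from the MICFs used for sequencing is not stated. The *in vivo* samples were eGFP+ cells sorted from infarcted hearts of wild-type C57BL/6 mice into which the cells had been transplanted, and the *in vitro* samples were eGFP+ cells kept in culture. Each was taken after 1 week and after 2 weeks of doxycycline, with 2 libraries in each of the 4 groups. Every library used here carries the reprogramming factors. The recipient mice also received tacrolimus, mycophenolate mofetil and methylprednisolone daily, and the study's general culture medium for reprogramming held SB431542, an inhibitor of TGF-β receptors, and baricitinib, an inhibitor of the JAK kinases downstream of interferon receptors. Whether the sequenced cultures were kept in that medium is not stated. Where they were, its inhibitors and the drugs given to the mice cannot be told apart from the surroundings of the cells in any comparison of heart with culture.

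Cells detect foreign or misplaced nucleic acids with receptors in the cytosol and in endosomes. RIG-I (*Ddx58*) and MDA5 (*Ifih1*) are cytosolic helicases that bind viral and other double-stranded RNA and pass the signal to MAVS on mitochondria, and LGP2 (*Dhx58*) is a related helicase that lacks the signalling domains and tunes both. TLR3 and TLR7 sense double-stranded and single-stranded RNA in endosomes, ZBP1 binds left-handed (Z-form) nucleic acids and can start necroptosis, and PKR (*Eif2ak2*) halts translation on double-stranded RNA. TREX1, a DNA exonuclease, and ADAR, which edits adenosine to inosine in double-stranded RNA, keep the cell's own nucleic acids from triggering these sensors. Many of these genes are themselves induced by interferons through short promoter elements, the ISRE and the GAS.

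Sequences at the start sites are given for the sensors whose window held an interferon-response motif, because such letters recur near the start sites of several members. Windows of 300 bases around RefSeq start sites on GRCm38.p6 were found for 7 of the 10 genes. They were searched on both strands for an ISRE core written as GAAA, any 2 bases and GAAA. It was present in 3 of these 7 genes, while 3.99% of all 27025 genes with such windows held it. Each stretch is written 5′ to 3′ on the strand of the gene, with the matching letters in capitals.
*Ddx58*, chr4:40239804-40239833, minus strand: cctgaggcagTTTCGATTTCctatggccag
*Ifih1*, chr2:62646206-62646233, minus strand: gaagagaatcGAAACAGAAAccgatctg
*Eif2ak2*, chr17:78882535-78882564, minus strand: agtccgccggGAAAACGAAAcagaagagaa
*Adar*, chr3:89730741-89730767, plus strand: tcaaggaaacGAAAGTGAActctgggg
The match in *Ddx58* lies on the opposite strand, 2 to 11 bases after the start site, and those in *Ifih1* and *Eif2ak2* begin 32 and 18 bases after it. The *Adar* line matches only a shorter form, GAAA, any 2 bases and GAA, which was added after the sequences had been seen and which 9.76% of all those genes held. It begins 33 bases after a start site inside the gene. The windows at the other start sites of *Adar*, near the start of the gene, held neither form. The GAS motif, TTC, any 3 bases and GAA, was present in windows of *Adar* and *Eif2ak2*, 2 of the 7 genes, against 9.55% of all genes. A match is a description of letters, and binding at these sites was not measured.

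Expression is given as FPKM, fragments scaled by gene length and sequencing depth, which can be compared between genes because gene length is taken out. The libraries held 12304242 to 14546904 fragments on genes. Differences were tested with limma on log2(FPKM + 0.1) over the 15708 genes with at least 0.5 FPKM in 2 or more libraries, and fold changes on this scale understate those of low genes. A gene is called higher or lower where its p, adjusted over these genes by the method of Benjamini and Hochberg (BH-adjusted p), is below 0.01 and its level differs more than 2-fold, that is by more than 1 on the log2 scale. Each standard error (SE) draws on the spread within all 4 groups. The study does not say from which animals or wells the replicates came, so p-values measure the spread between these libraries, which may be technical. The sorted cells carried markers of more than one cell type. The summed FPKM of 8 fibroblast markers was 10148 to 13231 *in vivo* and 2080 to 3180 *in vitro*, and that of 5 cardiomyocyte markers was 9.12 to 19.6 *in vivo* and 105 to 622 *in vitro*. The 16 macrophage markers summed to 2138 to 3496 *in vivo* and 5388 to 6611 *in vitro*, with none at 0 in any group. Of these sums *Lyz2* alone held 975 to 1453 *in vivo* and 2921 to 4014 *in vitro*. The mean log2 level of the 16 overlapped at 1 week, with 5.98 to 6.23 *in vivo* and 6.11 to 6.38 *in vitro*. At 2 weeks it was 5.36 to 5.63 *in vivo* and 6.23 to 6.46 *in vitro*. In bulk libraries such as these, fewer cells of a type and less RNA per cell cannot be told apart.

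Of the 10 sensors, 9 had measurable expression and were tested. *Zbp1*, *Dhx58*, *Ifih1* and *Adar* were higher *in vivo* at 1 week, 4 of 9 against 7.79% of all tested genes. *Tlr7* was lower, 1 of 9 against 5.07%. At 2 weeks *Zbp1*, *Tlr3* and *Adar* were higher, 3 of 9 against 9.02%, and *Tlr7* was again lower, 1 of 9 against 8.05%. Averaged over both weeks, *Zbp1*, *Dhx58* and *Adar* were higher, 3 of 9 against 9.56%, and *Tlr7* was lower, 1 of 9 against 7.3%. *Zbp1*, *Adar* and *Tlr7* were thus called at both weeks and in the average. The median log2 fold change of the 9 genes was 0.98 at 1 week and 0.67 at 2 weeks, against -0.0058 and -0.0034 over all tested genes. In 6 of the 9 genes all 4 *in vivo* libraries lay above all 4 *in vitro* libraries, which held for 20.5% of all tested genes. In *Tlr7* and *Mavs* all 4 lay below, which held for 20% of all tested genes.

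**Figure D1:**
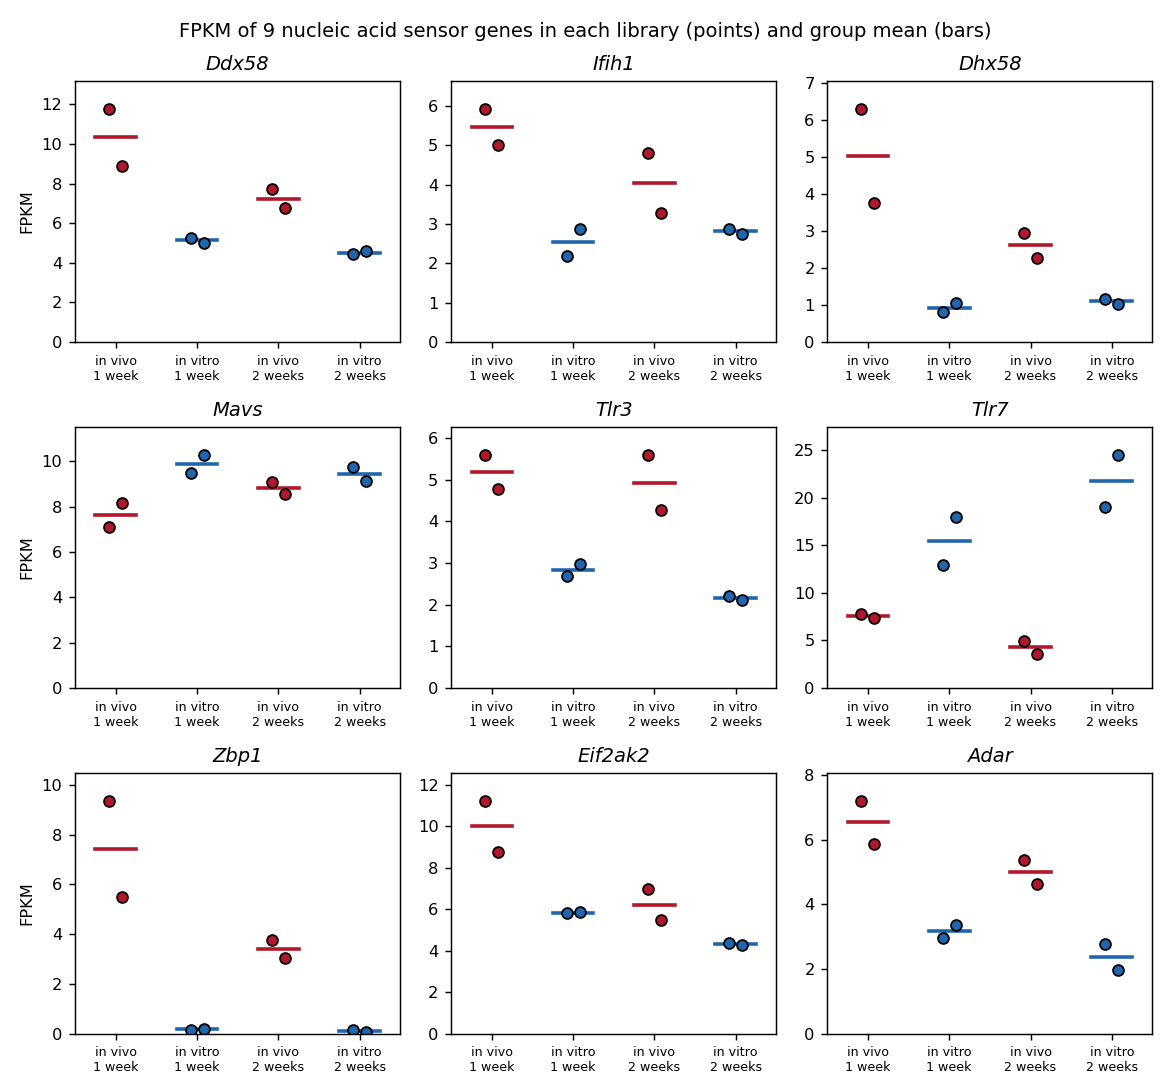
FPKM (linear axes from 0, a scale of its own for each gene) of the 9 sensors with measurable expression in the 8 libraries, with points for libraries, bars for group means, red for *in vivo* and blue for *in vitro*. *Zbp1* is near 0 in culture, *Tlr7* runs opposite to the other changed genes, and *Mavs* lies between 7.12 and 10.3 in every library.

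Among the 3 RIG-I-like helicases of the set, *Dhx58* had the largest log2 fold change at both weeks. *Dhx58* (ENSMUSG00000017830, chromosome 11 of mm10 from 100694884 to 100704271) had an FPKM of 6.29 and 3.75 *in vivo* and of 0.814 and 1.04 *in vitro* at 1 week. At 2 weeks it had 2.95 and 2.27 *in vivo* and 1.17 and 1.03 *in vitro*. The groups did not overlap at either week, and the lower *in vivo* library at 2 weeks held 82 fragments where the higher *in vitro* one held 53. The log2 fold change was 2.28 at 1 week (SE 0.27, BH-adjusted p = 6.4e-04 by limma). At 2 weeks it was 1.16 (adjusted p = 0.0102 by the same test), just short of the threshold, and the call was made there when either *in vivo* library of 1 week was left out (adjusted p = 0.0067 and 0.0071). The change between the weeks was -1.12 (adjusted p = 0.12), not past the threshold. An antisense gene, *Dhx58os*, overlaps 4.31% of the exonic bases of *Dhx58* and held 19 to 43 fragments per library, and whether the counting used strand is not given in the sources used here.

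*Ifih1* (ENSMUSG00000026896, chromosome 2 from 62595798 to 62646255), the gene of MDA5, had an FPKM of 5.92 and 5.01 *in vivo* and of 2.20 and 2.88 *in vitro* at 1 week. After 2 weeks the values were 4.80 and 3.28 *in vivo* and 2.88 and 2.76 *in vitro*. No *in vitro* library exceeded any *in vivo* one, but at 2 weeks the lower *in vivo* library came close to culture. Its log2 fold change was 1.09 at 1 week (SE 0.21, BH-adjusted p = 0.0056 by limma) and 0.48 at 2 weeks (adjusted p = 0.094), where it was not called. The call at 1 week was lost when any of the 4 libraries of that week or either *in vitro* library of 2 weeks was left out, with log2 fold changes of 0.90 to 1.27 and adjusted p of 0.013 to 0.046.

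*Ddx58* (ENSMUSG00000040296, chromosome 4 from 40203773 to 40239828), the gene of RIG-I, was the most abundant sensor *in vivo* at 1 week by its mean of 10.3 ± 2.03 FPKM (SD, n = 2), although *Eif2ak2* at 9.996 ± 1.74 lay within that spread. Its 2 *in vivo* libraries at 1 week had 11.8 and 8.90 FPKM against 5.27 and 5.01 *in vitro*. At 2 weeks it had 7.70 and 6.78 *in vivo* and 4.45 and 4.59 *in vitro*. The groups did not overlap at either week. This gave a log2 fold change of 0.98 at 1 week (SE 0.14, BH-adjusted p = 0.0015 by limma) and 0.67 at 2 weeks (adjusted p = 0.0067), so both passed the p threshold and neither passed the fold threshold. Without replicate 2 of the *in vivo* group at 1 week, the value at 1 week was 1.18 and was called.

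*Mavs* (ENSMUSG00000037523, chromosome 2 from 131234063 to 131248025), the adaptor on which RIG-I and MDA5 converge, did not share this pattern. It had an FPKM of 7.12 and 8.17 *in vivo* and of 9.496 and 10.3 *in vitro* at 1 week. By 2 weeks the levels were 9.08 and 8.55 *in vivo* and 9.75 and 9.15 *in vitro*. Its log2 fold change was -0.37 at 1 week (95% interval -0.59 to -0.15, BH-adjusted p = 0.018 by limma) and -0.10 at 2 weeks (95% interval -0.32 to 0.12). Neither was called, and both intervals lie within a 2-fold change.

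**Figure D2:**
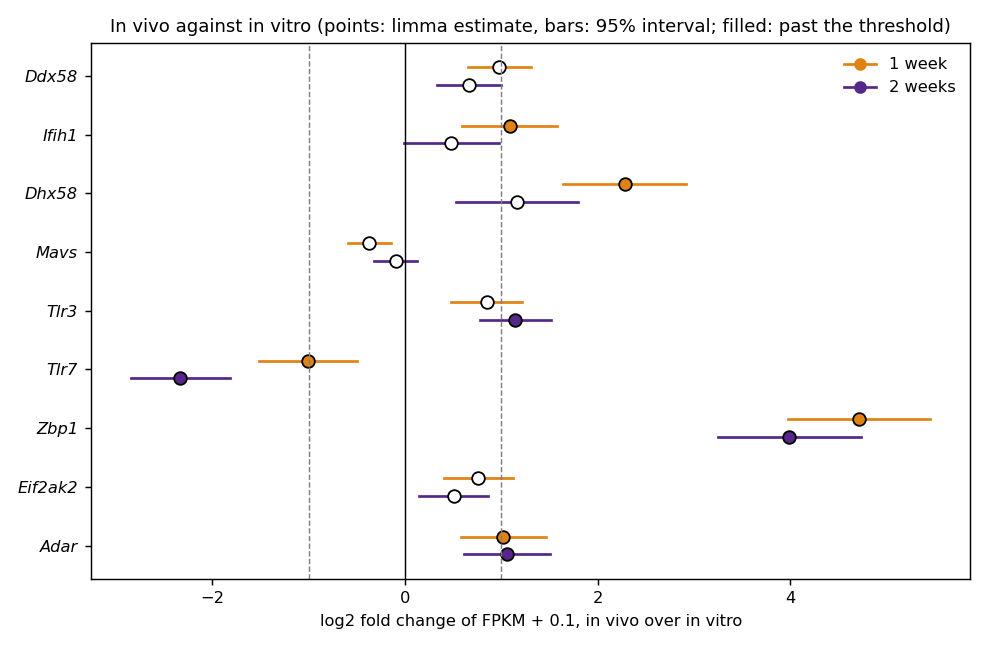
Log2 fold change of FPKM + 0.1, *in vivo* over *in vitro*, for the 9 tested sensors at 1 week (orange) and 2 weeks (purple). Points are limma estimates with 95% intervals, filled where called, and dashed lines mark a log2 fold change of 1 in either direction; *Zbp1* lies at 4.71 and 3.99 and *Tlr7* at -1.01 and -2.33.

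The endosomal receptors went in opposite directions. *Tlr3* (ENSMUSG00000031639, chromosome 8 from 45395665 to 45411080) had an FPKM of 5.59 and 4.78 *in vivo* and of 2.68 and 2.98 *in vitro* at 1 week. The levels at 2 weeks were 5.58 and 4.26 *in vivo* and 2.19 and 2.10 *in vitro*. No *in vitro* library reached the lowest *in vivo* one. The log2 fold change was 0.85 at 1 week (SE 0.15, BH-adjusted p = 0.0045 by limma), under the fold threshold, and 1.15 at 2 weeks (adjusted p = 9.2e-04), where it was called. The average over both weeks, 0.997 (adjusted p = 2.4e-04 by limma), was just under the fold threshold. With 1 library left out this average was 0.90 to 1.09. The call at 2 weeks was lost without replicate 1 of the *in vivo* group at 2 weeks (0.96, adjusted p = 0.0045). Markers of fibroblasts and of endothelial cells were also higher *in vivo*, though not all of them. Of the 8 fibroblast markers 6 were called higher at each week, with *Pdgfra* and *Tcf21* the exceptions and list medians of 1.73 and 2.08. The 7 endothelial markers had a summed FPKM of 66.0 to 82.4 *in vivo* and 20.1 to 47.8 *in vitro*. Of these markers, 6 were called higher at 1 week and 3 at 2 weeks, with medians of 2.67 and 0.90. The part of either cell type in the result for *Tlr3* was not tested.

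*Tlr7* (ENSMUSG00000044583, chromosome X from 167304929 to 167330558) had an FPKM of 7.78 and 7.33 *in vivo* and of 13.0 and 18.0 *in vitro* at 1 week. After 2 weeks these were 4.99 and 3.55 *in vivo* and 19.0 and 24.5 *in vitro*, where it was the most abundant sensor. All *in vivo* libraries were below all *in vitro* libraries. Its log2 fold change was -1.01 at 1 week (SE 0.22, BH-adjusted p = 0.0092 by limma) and -2.33 at 2 weeks (adjusted p = 1.7e-04). The call at 1 week was lost when any of that week's 4 libraries or either *in vitro* library of 2 weeks was left out, with values of -1.24 to -0.77 and adjusted p of 0.013 to 0.060, and the call at 2 weeks was kept in each such fit. The difference between the weeks was -1.33 (SE 0.31, BH-adjusted p = 0.042 by limma), not past the threshold, although limma voom on the recovered fragments called it (adjusted p = 0.0087).

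*Tlr7* is expressed mainly by macrophages, plasmacytoid dendritic cells and B cells. The calls of the macrophage markers were mixed at 1 week and mostly lower *in vivo* at 2 weeks. Of the 16, 2 rose and 1 fell *in vivo* at 1 week, while 1 rose and 10 fell at 2 weeks (*Cx3cr1* rose at both weeks and *Fcgr1* at 1 week, and *Lyz2* fell at both), with median log2 fold changes of -0.37 and -1.08. Set against the mean log2 level of the 16 markers in the same library, *Tlr7* stood at -3.26 and -3.08 *in vivo* and at -2.41 and -2.20 *in vitro* at 1 week. At 2 weeks it stood at -3.28 and -3.49 *in vivo* and at -1.98 and -1.83 *in vitro*. By summed FPKM, the 16 markers were at 3002 to 3496 *in vivo* and 5687 to 6482 *in vitro* at 1 week. Of this, *Lyz2* held 1453 and 1331 *in vivo* and 3574 and 4014 *in vitro*, and the mean log2 levels of the 16 overlapped. On the relative scale, which weights the 16 equally, *Tlr7* was lower *in vivo* in all libraries. *Tlr13*, a mouse receptor for bacterial ribosomal RNA, showed the same order, with -3.67 to -2.77 *in vivo* and -2.31 to -1.61 *in vitro*. *Tlr8* did not, with -4.24 to -3.38 *in vivo* and -4.32 to -3.37 *in vitro*. For the other cells, 7 plasmacytoid dendritic cell markers summed to 5.20 to 66.4 FPKM *in vivo* and 5.18 to 14.6 *in vitro*, most of it from *Klk1* and *Cox6a2* and with the defining gene *Siglech* at no more than 0.16, and 10 lymphocyte markers summed to 3.73 to 4.13 *in vivo* and 0.987 to 2.55 *in vitro*. The part of any of these cells in the result for *Tlr7* was not tested.

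**Figure D3:**
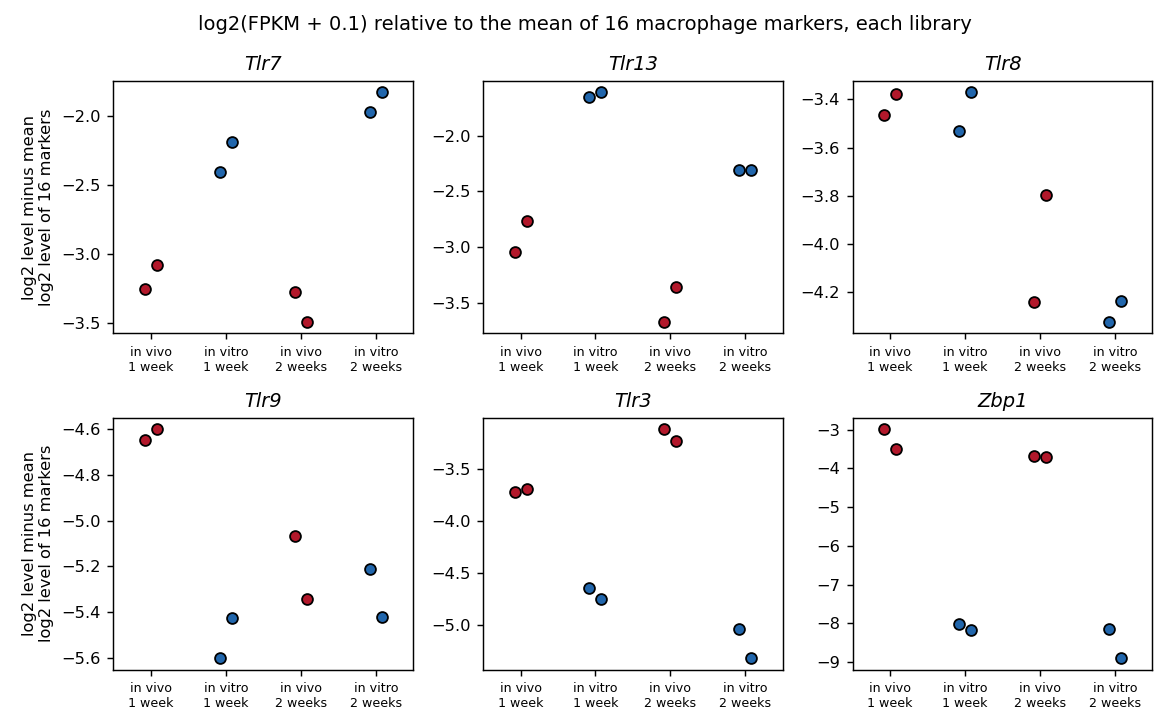
Log2(FPKM + 0.1) of 5 endosomal toll-like receptors and *Zbp1*, minus the mean log2 level of 16 macrophage markers in the same library (each panel has its own scale, red *in vivo*, blue *in vitro*). *Tlr7* and *Tlr13* lie lower *in vivo* in every library, *Tlr3* and *Zbp1* lie higher, and *Tlr8* and *Tlr9* overlap.

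*Zbp1* showed the largest difference of the 9 genes at both weeks. *Zbp1* (ENSMUSG00000027514, chromosome 2 from 173206612 to 173218923) had an FPKM of 9.37 and 5.48 *in vivo* and of 0.166 and 0.190 *in vitro* at 1 week. At 2 weeks it had 3.77 and 3.05 *in vivo* and 0.164 and 0.0834 *in vitro*. These values rest on 119 to 387 fragments *in vivo* and on 4 to 10 fragments *in vitro*, so the gene was close to the limit of detection in culture. The ratio of the group means was 41.8 at 1 week and 27.6 at 2 weeks. This gave a log2 fold change of 4.71 at 1 week (SE 0.31, BH-adjusted p = 4.9e-05 by limma) and 3.99 at 2 weeks (adjusted p = 7.8e-05). It was called in every alternative fit run, with 2.80 to 5.26 at 1 week and 1.97 to 4.74 at 2 weeks over these fits.

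*Eif2ak2* (ENSMUSG00000024079, chromosome 17 from 78852564 to 78882573), the gene of PKR, had an FPKM of 11.2 and 8.77 *in vivo* and of 5.79 and 5.84 *in vitro* at 1 week. After 2 weeks the values were 6.95 and 5.45 *in vivo* and 4.37 and 4.26 *in vitro*. Within each week the groups did not overlap, but the lower *in vivo* library of 2 weeks was below both *in vitro* libraries of 1 week. The log2 fold change was 0.76 at 1 week (SE 0.15, BH-adjusted p = 0.0065 by limma) and 0.50 at 2 weeks (adjusted p = 0.028), and neither was called.

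*Adar* (ENSMUSG00000027951, chromosome 3 from 89715022 to 89753446) had an FPKM of 7.21 and 5.86 *in vivo* and of 2.95 and 3.37 *in vitro* at 1 week. At 2 weeks it had 5.36 and 4.63 *in vivo* and 2.77 and 1.97 *in vitro*. The groups did not overlap. Its log2 fold change was 1.02 at 1 week (SE 0.19, BH-adjusted p = 0.0047 by limma) and 1.06 at 2 weeks (adjusted p = 0.0032), and the difference between the weeks was 0.04 (95% interval -0.59 to 0.66). The values sit at the fold threshold. The call at 1 week was lost without any one library of that week (0.87 to 1.17, adjusted p of 0.017 to 0.039), and that at 2 weeks without replicate 1 or 2 *in vivo* or replicate 2 *in vitro* of that week (0.82 to 1.16, adjusted p of 0.011 to 0.022). The average over both weeks, 1.04, fell to 0.92 to 0.99 and was not called without replicate 1 of any group but *in vitro* at 2 weeks, or without replicate 2 of that group. The opposite-strand gene *Chrnb2* covers 16.8% of the exonic bases of *Adar* and held 14 to 26 fragments, where *Adar* held 218 to 685.

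*Trex1* (ENSMUSG00000049734, chromosome 9 from 109057933 to 109059734), the gene of the DNA exonuclease, was listed at 0 in all 8 libraries and was not tested. All 1147 of its exonic bases (100%) lie within exons of *Atrip* on the same strand in the GENCODE vM21 annotation, and *Atrip* was listed at 1.59 to 2.23 FPKM. Fragments of the overlapping genes cannot be told apart in this table, so the level of *Trex1* is uncertain.

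With time, no sensor was called. *In vivo*, 2 weeks against 1 week gave 0 called sensors by limma (2.18% of all tested genes), with 5 at an unadjusted p under 0.05 and 1, *Zbp1*, called by limma voom on the recovered fragments. The fold change was negative in 8 of the 9 genes. *Zbp1* had a log2 fold change of -1.06 (adjusted p = 0.065 by limma), *Dhx58* of -0.88 (0.069), *Tlr7* of -0.83 (0.045), *Eif2ak2* of -0.68 (0.027) and *Ddx58* of -0.50 (0.055). *Tlr3*, at -0.08, and *Mavs*, at 0.21, were closest to no difference. *In vitro*, 0 were called by limma (3.81% of all tested genes) or by limma voom, with 2 at an unadjusted p under 0.05, *Tlr3* at -0.38 and *Eif2ak2* at -0.42. *Tlr7* had 0.50 there (adjusted p = 0.14). The difference between the weeks gave 0 called sensors by limma (1.73% of all tested genes), 2 at an unadjusted p under 0.05, *Tlr7* and *Dhx58*, and 1 by limma voom, *Tlr7*.

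**Figure D4:**
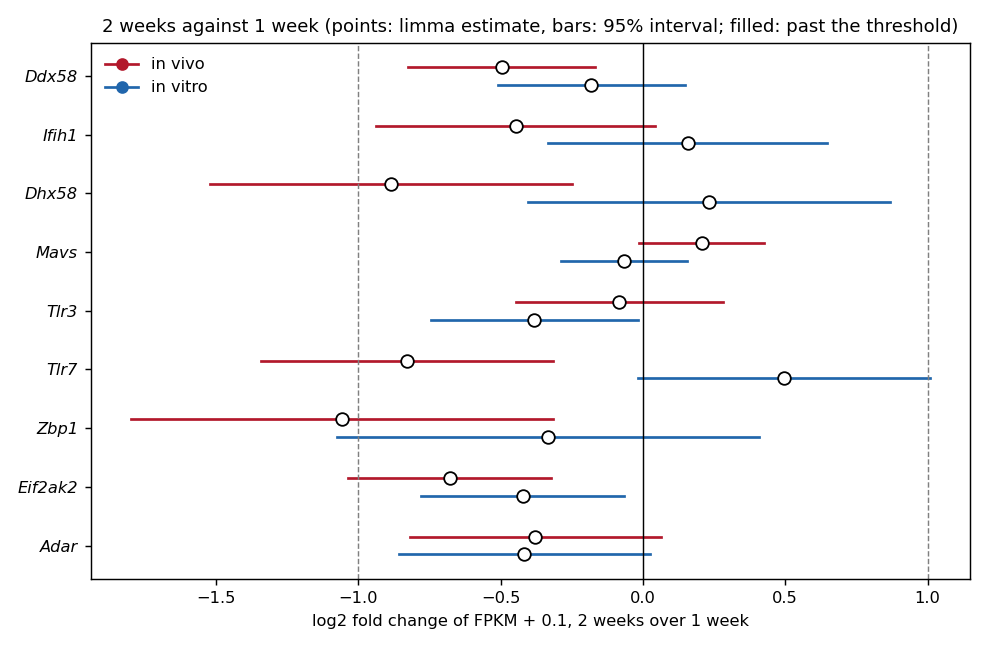
Log2 fold change of FPKM + 0.1 from 1 week to 2 weeks for the 9 tested sensors, *in vivo* (red) and *in vitro* (blue), with 95% intervals. Open points are not called, dashed lines mark a log2 fold change of 1 in either direction, and *in vivo* 8 of 9 estimates are negative.

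Counted by sign alone, whatever the size of the gap, the sensors tended to differ in a common direction between the 2 libraries of a group. *In vivo*, replicate 1 exceeded replicate 2 in 8 of 9 sensors at 1 week, all but *Mavs*, and in 9 of 9 at 2 weeks, where 48.0% and 50.4% of all tested genes were higher in replicate 1. *In vitro* it did so in 1 of 9 sensors at 1 week and in 7 of 9 at 2 weeks, against 46.8% and 47.4% of all tested genes. Some *in vitro* gaps were small, such as 5.79 and 5.84 FPKM for *Eif2ak2* at 1 week. Others were larger, such as 19.0 and 24.5 for *Tlr7* at 2 weeks. *In vivo* at 1 week, *Zbp1* had 9.37 and 5.48. Whether the 9 signs are independent of each other was not tested.

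The pattern over the 8 libraries was compared with that of all tested protein-coding genes by Pearson's r of the log2 values, a description in which the 4 groups carry most of the spread. *Zbp1* was closest to *Apol9a*, *Shroom4* and *Oas2* (r of 0.996 to 0.998), and *Dhx58* to *Lgals3bp*, *Oas3* and *Ifi211* (0.989 to 0.997). *Ddx58* was closest to *Parp12*, *Trim30a* and *Slamf9* (0.985 to 0.991), and *Ifih1* to *Cd79b*, *Jmjd1c* and *Zmynd15* (0.981 to 0.994). *Tlr7* was closest to *Gcnt2*, *Gng2* and *Rap2b* (0.993 to 0.994), and *Tlr3* to *Rc3h1*, *Capn6* and *Zbtb11* (0.990 to 0.995). *Adar* was closest to *Lhx6*, *Slc30a4* and *Apol9b* (0.984 to 0.985), *Eif2ak2* to *Sh2d1b1*, *Gpr107* and *Asph* (0.984 to 0.987), and *Mavs* to *Ppp1r3e*, *Cdc42ep4* and *Dhtkd1* (0.962 to 0.986).

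Other sensors of nucleic acids and related ligands showed a mixed picture. Of the 24 that were tested, 9 rose and 2 fell *in vivo* at 1 week, and 7 rose and 2 fell after 2 weeks, with medians of 0.39 and 0.07. Over all tested genes the shares were the 7.79% and 5.07%, and the 9.02% and 8.05%, given above. The count of rises was 4 to 9 at 1 week with 1 library left out, lowest without replicate 1 of either group of that week. The count at 2 weeks was 3 to 5 whichever of the 8 libraries was left out, lowest without either *in vitro* library of that week. Of these, members of the *Ifi200* family, several of which bind DNA, had the largest rises named by the rule. *Ifi209* had log2 fold changes of 3.27 and 2.06, *Ifi205* of 2.38 and 2.78 and *Ifi203* of 2.35 and 1.90 at 1 week and 2 weeks. Other members of the family were mixed. *Ifi204* (1.403 and 1.15) and *Mndal* (1.998 and 1.26) were also called higher at both weeks. *Ifi213* was called higher at 1 week only (3.72), and it was listed at 0 *in vitro*, so this value depends on the pseudocount. *Ifi207* had 0.32 and -0.71 and *Aim2* had -0.24 and -0.72, none of them called. The 3 *Ifi200* genes first named are close paralogs, so their counts are uncertain where reads could be split between them. *Tlr13* fell, with -1.41 and -2.06. *Mb21d1*, the gene of the cytosolic DNA sensor cGAS, had 0.52 and 0.89 and was not called. *Tmem173*, the gene of its adaptor STING, had 22.8 and 24.7 FPKM *in vivo* and 10.6 and 10.2 *in vitro* at 1 week, a log2 fold change of 1.18 that was called, and 0.52 at 2 weeks that was not. *Tlr9*, the endosomal receptor for unmethylated DNA, had 0.75 at 1 week and -0.74 at 2 weeks, neither of them called, and the difference of -1.49 did not pass the threshold (adjusted p = 0.038 by limma).

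**Figure D5:**
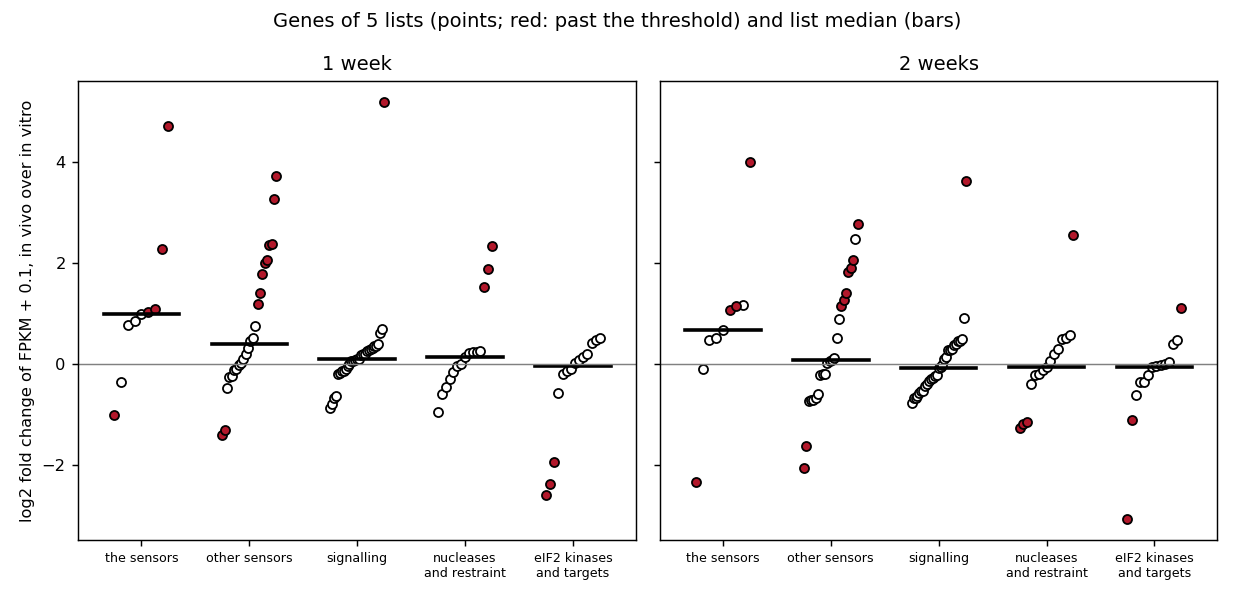
Log2 fold change of FPKM + 0.1, *in vivo* over *in vitro*, for tested genes of 5 lists at 1 week and 2 weeks, with points for genes, red where called and bars for list medians. The medians of the signalling, nuclease and eIF2 lists lie between -0.09 and 0.13, and the value of *Ifi213*, listed at 0 *in vitro*, depends on the pseudocount.

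Downstream of the sensors, 1 of 29 tested signalling genes was called higher at each week and the rest were not called, against 7.79% higher and 5.07% lower of all tested genes at 1 week and 9.02% and 8.05% at 2 weeks. The same shares apply to the counts of the 2 lists that follow, which rest on few genes. It was *Irf7*, the interferon-inducible factor that amplifies type I interferon transcription, with 37.8 and 18.5 FPKM *in vivo* and 0.791 and 0.496 *in vitro* at 1 week. By 2 weeks the levels were 13.7 and 10.05 *in vivo* and 0.862 and 0.857 *in vitro*. Its log2 fold changes were 5.19 and 3.63 (BH-adjusted p = 5.2e-05 and 2.0e-04 by limma). The other 28 genes of the list were not called at either week, and the list medians were 0.09 and -0.09. Some passed the p threshold at both weeks but not the fold threshold, in both directions. *Tbk1* (-0.80 and -0.78) and *Ikbke* (-0.88 and -0.58) were lower *in vivo*. *Hsp90b1* (0.69 and 0.91) and *Cnpy3* (0.36 and 0.46) were higher. Of 15 tested nucleases, editing enzymes and inhibitors that restrain sensing, 3 were higher at 1 week (*Adarb1*, *Rnf125* and *Tnfaip3*), and *Adarb1* was higher and *Dnase2a*, *Pld4* and *Nlrc3* lower at 2 weeks. With 1 library left out, 1 to 3 of this list were lower at 2 weeks. *Adarb1*, the other catalytically active ADAR enzyme, had log2 fold changes of 2.34 and 2.54. Of 14 tested eIF2 kinases and targets of the response that PKR feeds, 3 were lower at 1 week (*Chac1*, *Trib3* and *Asns*), and at 2 weeks *Eif2ak3*, the gene of the kinase PERK, was higher and *Chac1* and *Ddit3* lower. *Chac1*, a target of the ATF4 arm, had -2.61 and -3.07.

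The interferon genes that sensing can induce were low in nearly every library. All 20 listed type I and type III genes failed the filter on low values, which asks for 0.5 FPKM in 2 libraries. *Ifnb1* had 4 and 35 fragments *in vivo* at 1 week, an FPKM of 0.456 and 3.58, the latter well above that limit. It had 0 and 2 fragments *in vivo* at 2 weeks, and 0 or 1 in each *in vitro* library. At 1 week the 2 *in vivo* libraries thus differed by most of the signal, replicate 2 holding the higher count. *Zbp1*, *Dhx58* and *Irf7* were higher in replicate 1, and any link between *Ifnb1* and the levels of these genes was not tested.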

How the data were processed

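Total RNA from sorted cells was made into mRNA libraries, sequenced and mapped by a provider. The submitters' processing notes name CASAVA, HISAT2 2.0.5 and the mm10 build, and the counting tool is not given in the sources used here. The deposited FPKM, made by the authors' provider, were used as they stand. FPKM times gene length gave whole fragments for 100% of values above 0 (within 0.01 of a fragment), and the deposited values already hold a scaling between libraries. The study's own differential test was not repeated. The main test here was limma 3.58.1 in R 4.3.3 with an intensity trend on log2(FPKM + 0.1), all 8 libraries in 4 groups, and Benjamini-Hochberg adjustment over 15708 genes. The test was run on simulated data with planted changes well above 2-fold, so the run does not cover changes near the threshold. It recovered 86 of 96 changes at 1 week, 168 of 193 at 2 weeks and 65 of 97 in the difference between weeks. Wrong calls numbered 1, 7 and 6.

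The members and gene lists were chosen with earlier results of these data known. Named beside the members were, from each wider list, up to 4 genes called in 1 direction at both weeks with the largest change and a mean of at least 1 FPKM in the higher group, then *Ifnb1*, *Mb21d1*, *Tmem173* and *Tlr9*, and the 3 protein-coding genes most like each sensor. *Tlr8*, *Siglech*, *Ifi213*, *Ifi204*, *Mndal*, *Ifi207*, *Aim2*, *Tbk1*, *Ikbke*, *Hsp90b1* and *Cnpy3* were added after their values were seen. So were the named macrophage markers, the fibroblast marker exceptions and the called genes of the last 2 lists other than *Adarb1* and *Chac1*. Results for some items are not reported here. The replicate numbers did not pair the samples. Alternatives were other pseudocounts, filters, scalings and thresholds, protein-coding genes, limma voom on the fragments, 1 week's libraries, a replicate block and each library left out. Promoter sequences came from RefSeq. Python 3.11.15, pandas 2.3.3, numpy 2.4.6 and matplotlib 3.10.9 were used.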

Additional observations from a re-analysis of the deposited data

How the results depend on the processing

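Calls near the thresholds moved with the settings, while directions mostly did not. Of 1324 alternative values of single genes, 1218 kept direction and side of the threshold, 69 lost a call, 28 gained one and 9 turned direction. The turned values were small and not called. They were *Adar* for the difference between weeks (-0.015 with a pseudocount of 1, -0.012 after quantile normalization, and -0.20 to 0.27 with 1 library left out), *Tlr3* from 1 week to 2 weeks *in vivo* (-0.27 to 0.11 with 1 library left out) and *Ifih1* from 1 week to 2 weeks *in vitro* (-0.030 to 0.35 likewise). The sensors higher at 1 week, 4, were 2 with a pseudocount of 1, no filter, no variance trend, that week's 4 libraries only or no scaling between libraries, and 7 at an adjusted p under 0.05 with no fold limit. The 1 lower at 1 week, *Tlr7*, became 0 with a pseudocount of 1 or 0.01, no filter, no variance trend or that week's libraries only, and 2 at the adjusted p under 0.05. At 2 weeks the 3 higher were 1 with a pseudocount of 1, no scaling or that week's libraries only, and 6 at the adjusted p under 0.05. Over both weeks that threshold gave 7 higher and 2 lower, and it gave 1 sensor for the difference between weeks and 2 for the time *in vivo*, where limma voom gave 1 each. With 1 library left out the counts were 2 to 4 higher and 0 to 1 lower at 1 week, and 1 to 4 higher at 2 weeks. For the 4 wider lists, 13 higher and 5 lower at 1 week became 23 and 14 at the adjusted p under 0.05, and 9 were lower without scaling. Their 10 higher and 7 lower at 2 weeks became 6 higher with a pseudocount of 1 or no filter, 4 and 13 without scaling, 23 and 25 at the adjusted p under 0.05, and 6 and 4 with that week's libraries only. With 1 library left out they were 7 to 13 higher at 1 week, and 6 to 8 higher and 4 to 7 lower at 2 weeks. Without the scaling, the median over all tested genes shifted to -0.34 and -0.32 at 1 week and 2 weeks, and the sensors' log2 fold changes shifted with it. The causes of the other changes were not tested.

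The replicate numbers did not pair the samples, since the deviations of same-numbered libraries correlated at -0.05 to -0.01. With a replicate block, 0 sensors instead of 1 were lower at 1 week, as *Tlr7* had an adjusted p of 0.018 by limma, and *Ifih1* at 1 week had an adjusted p of 0.011.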
